A study of Drosophila melanogaster with 2 samples.

Results

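The Decapentaplegic (Dpp) signalling genes are 10 genes of the fly bone morphogenetic protein (BMP) pathway, chosen by name: *dpp*, *gbb*, *tkv*, *put*, *Mad*, *Med*, *Dad*, *shn*, *brk* and *cv-2*. All 10 matched 1 gene each among the 13945 protein-coding genes on the main chromosome arms. The data are chromatin immunoprecipitation with sequencing (ChIP-seq) of whole *Drosophila melanogaster* embryos that stably express the zinc-finger protein Her, a factor of sex determination, with GFP at its C-terminus. The line carries an insertion targeting *her*, whose promoter the labels do not name, and chromatin was recovered with an antibody to GFP. Both biological replicates were mixed-sex embryos aged 0 to 24 hours, so each holds all embryonic stages and cell types of both sexes, and weaker binding cannot be told apart from binding in fewer cells. The replicates form 1 group, and no untagged or other condition was analysed here, so where the values below are set against other genes they describe 1 experiment and carry no test.

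Dpp and Gbb are secreted ligands of the BMP class that bind paired type I and type II receptor kinases, and the receptors phosphorylate the Smad protein Mad. Phosphorylated Mad joins Medea, the common Smad encoded by *Med*, and the complex enters the nucleus, where it acts with the zinc-finger protein Schnurri (*shn*) to repress *brk*, itself a repressor of Dpp target genes. In the embryo the pathway is known for patterning the dorsal ectoderm, and later for signalling to the midgut and the trachea.

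The authors' region lists give each region a summit and a signal, on a scale that no source names. A region was tied to a gene when its summit lay in the gene body or within 1 kb of a transcription start site (TSS). The lists used were the 3930 regions past the authors' threshold on the irreproducible discovery rate (IDR), called thresholded here, 30000 relaxed regions of the pooled replicates, and 30000 relaxed regions of each replicate. The authors label the pooled relaxed list as peaks and background, the input for the IDR. Its deposited −log10 q-values went down to 0.382, and those of replicates 1 and 2 to 0.332 and 0.320. A count of relaxed regions can therefore include background and is not a count of binding sites. The thresholded list was identical to the 3930 strongest pooled regions, whose lowest signal was 90.8, so a region below that value is a pooled region and not a thresholded one. Signals are given within a list, and ranks count from 1 at the strongest. No source used here states the read depth of either replicate.

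The genome sequence under the summits is shown for the strongest thresholded region of *Mad*, *dpp*, *Dad* and *brk*. Genes of the set on the same chromosome arm as *shn* were left out. The strongest region of the set, at *shn*, is therefore not among the sequences shown. Shorter stretches show the promoter matches of *put* and of *dpp*. Each is dm6 sequence on the plus strand, and capitals mark matches on either strand to the sequences searched.

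*Mad* intron, chr2L:3153375-3153475: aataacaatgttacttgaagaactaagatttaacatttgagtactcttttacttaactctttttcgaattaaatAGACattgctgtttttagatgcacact

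*dpp* intron, chr2L:2433603-2433703: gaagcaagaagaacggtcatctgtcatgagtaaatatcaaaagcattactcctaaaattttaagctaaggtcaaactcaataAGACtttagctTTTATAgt

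*Dad* intron, chr3R:17065018-17065118: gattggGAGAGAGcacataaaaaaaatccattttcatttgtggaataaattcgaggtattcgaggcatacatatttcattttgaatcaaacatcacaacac

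*brk* upstream region, chrX:7307105-7307205: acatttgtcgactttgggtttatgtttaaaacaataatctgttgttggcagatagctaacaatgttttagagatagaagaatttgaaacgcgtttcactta

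*put* start, chr3R:14625672-14625698: CGATAgcgatggcCGATAggCGATAac

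*dpp* internal start, chr2L:2451206-2451221: TATCGgaatCAGGTAG

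The capitals in *Mad* and in the first *dpp* sequence include AGAC, the reverse complement of the short Smad box GTCT. In *dpp* the capitals also include TTTATA, the reverse complement of TATAAA. In *Dad* they mark GAGAG, the core of GAGA factor sites. The *put* stretch holds CGATA 3 times in 27 bases. The *dpp* internal start holds TATCG, the reverse complement of CGATA, followed by CAGGTAG, the site of the early embryonic factor Zelda. The *brk* window held none of the 12 sequences searched.

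Of the 10 genes, 8 had at least 1 thresholded region, against 25.2% of all protein-coding genes, and the exceptions were *tkv* and *Med*. The median length of the 10 was 15.0 kb, against 2.17 kb over protein-coding genes, and a longer body can hold more summits. Among the 6 members of 10 kb or longer, 5 had a thresholded region, against 47.9% of genes of that length, and 3 of the 4 shorter members had one, against 21.4%. Counting only summits within 1 kb of a TSS left the same 8 members, against 23.3% of all protein-coding genes, and 5 of the 6 longer ones, against 39.2%. All 10 had a relaxed region in the pooled list, where 64.1% of all genes and 83.0% of the longer ones had one. All 10 also had one in replicate 1, against 65.3% of genes, and in replicate 2, against 66.0%. The members held 20 thresholded and 144 pooled relaxed regions, 147 in replicate 1 and 136 in replicate 2.

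**Figure D1:**
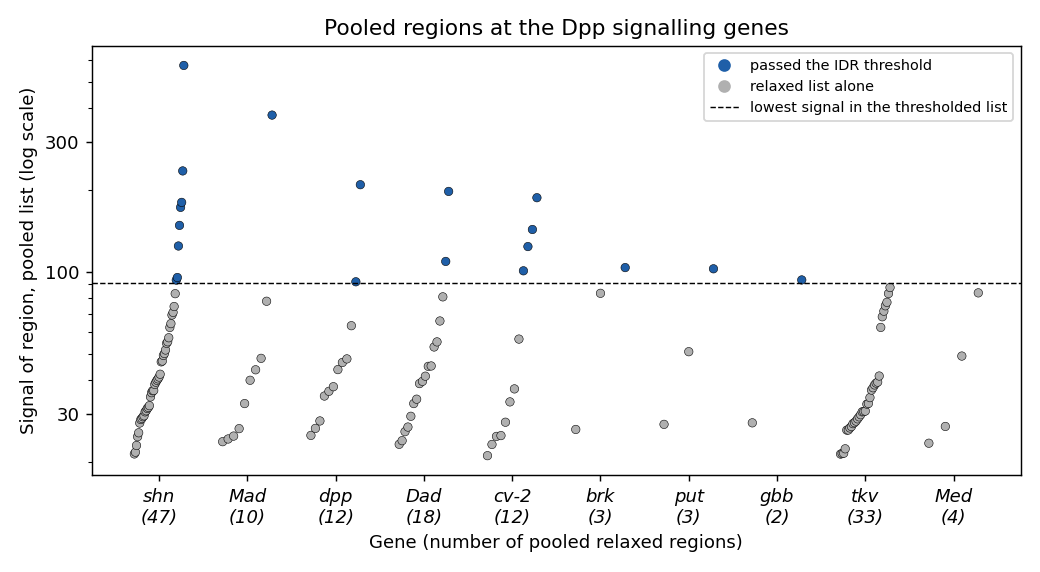
Signal of every pooled region (log scale) at each Dpp signalling gene, 1 point per region, ordered by size from left to right within a gene. Points above the dashed line, at 90.8, are in the thresholded list. *shn* reaches 573 and *Mad* 376, while the highest points of *tkv* (87.5) and *Med* (83.6) lie just under the line.

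The ligand gene *dpp* (FBgn0000490, 2L, 2428372 to 2459823, plus strand, 31.5 kb) had 2 thresholded regions. The stronger spanned 2433557 to 2433722 with its summit at 2433653, in an intron 5281 bp downstream of the gene's first TSS, and had a pooled signal of 209 at rank 917. Its signal was 111 in replicate 1 and 95.3 in replicate 2, and its ranks of 980 and 985 were nearly equal. The weaker region, 2451026 to 2451429, had its summit 1 bp from the third of 4 TSSs along the gene, with a signal of 91.8 at rank 3861, close to the end of the thresholded list. It ranked 4070 in replicate 1 and 4910 in replicate 2, so it lay outside the 3930 strongest regions of each replicate alone. The other 10 pooled regions of *dpp* had signals between 25.0 and 63.3, and the first TSS lay under one of 46.4.

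The second ligand gene, *gbb* (FBgn0024234, 1.69 kb), encodes Glass bottom boat, a partner of Dpp in many tissues. It lies at 23851562 to 23853247 on the plus strand of 2R and had 1 thresholded region, 23851341 to 23851744, with the summit 19 bp upstream of its only TSS. The pooled signal was 93.3 at rank 3770, and the replicate signals were 50.03 at rank 4133 in replicate 1 and 40.9 at rank 4411 in replicate 2. This summit too was outside the strongest 3930 of either replicate. A far stronger region lay just beyond the 1 kb limit: the summit at 23850399 had a signal of 907 at rank 96 and was 1163 bp from the *gbb* TSS, but only 69 bp from the start of the antisense RNA gene asRNA:CR45928. It is not counted for *gbb*.

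The receptor genes differed in whether a region passed the threshold. *put* (FBgn0003169, 3R, 14619030 to 14625703, minus strand), the gene of the type II receptor Punt, had 1 thresholded region of 150 bp, 14625635 to 14625784, with the summit 20 bp inside the gene from its TSS. Its signal was 103 at rank 3267, and it had 68.3 at rank 2458 in replicate 1 and 41.7 at rank 4281 in replicate 2. Its relaxed regions elsewhere had signals of 50.8 in an intron and 27.5 upstream of the TSS, where the start of the histone gene *His4r* was nearer, at 492 bp.

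*tkv* (FBgn0003716, 2L, 5219000 to 5271384, minus strand, 52.4 kb), which encodes the type I receptor Thickveins, had 33 pooled relaxed regions and none that was thresholded. Among all protein-coding genes, 62 had 30 or more pooled regions, and 2 of those had no thresholded one; 33 was the largest number at any gene without a thresholded region. This comparison was chosen after the values were seen. The strongest *tkv* region had its summit at 5237336, 26 bp downstream of an internal TSS, with a signal of 87.5 at rank 4154. It was the strongest of the gene in replicate 1 (signal 59.0, rank 3140) but had a signal of 30.1 at rank 7242 in replicate 2. In replicate 2 the strongest was an intronic region with its summit at 5245828 (signal 46.9, rank 3554), which had 23.7 at rank 12942 in replicate 1. Both of these ranks are within the 3930 strongest of their replicate, but the regions lie at different places. In all, 7 *tkv* regions had pooled signals over 60, 17 of the 33 were matched within 200 bp in both replicates, and 23 lay in introns.

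*Mad* (FBgn0011648, 2L, 3146056 to 3159643, minus strand, 13.6 kb), the gene of the receptor-regulated Smad, had a single thresholded region, the second strongest of the set. It spanned 3153271 to 3153543 with the summit at 3153425, in an intron 672 bp upstream of the second TSS of the gene. The pooled signal was 376 at rank 302, with 209 at rank 286 in replicate 1 and 168 at rank 333 in replicate 2. The next *Mad* region, 168 bp downstream of the first TSS, had a signal of 77.9, and the 9 relaxed regions below the threshold ran down to 23.7.

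*Med* (FBgn0288966, 3R, 31611046 to 31615375, plus strand, 4.33 kb), the gene of the common Smad, had 4 pooled regions, the strongest 274 bp downstream of its TSS with a signal of 83.6 at rank 4441. Its nearest replicate regions had 46.5 at rank 4654 in replicate 1, with a summit 155 bp away, and 40.1 at rank 4561 in replicate 2. Replicate 2 also held a stronger *Med* region, with 45.3 at rank 3772. Its summit at 31611067 was 21 bp inside the gene from the TSS but lay 253 bp from the nearest pooled summit of *Med*, beyond the 200 bp allowed for a match. The strongest pooled summit also lies in the body of *CycG*, a cyclin gene on the other strand. A thresholded region with a signal of 110.1 at rank 2909 lay 1198 bp from the *Med* TSS, outside the limit, and 33 bp from a *CycG* TSS.

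*Dad* (FBgn0020493, 3R, 17054007 to 17070408, plus strand, 16.4 kb) encodes Daughters against dpp, an inhibitory Smad that Dpp signalling induces. It had 2 thresholded regions. The stronger, 17064980 to 17065250, lay in an intron 10171 bp downstream of the nearest *Dad* TSS, with a signal of 197 at rank 1007; the replicates gave 114 at rank 920 and 83.1 at rank 1265. The other, 17053852 to 17054255, had its summit 47 bp downstream of the first TSS and a signal of 109 at rank 2958, with ranks of 2593 in replicate 1 and 2759 in replicate 2. To the summit of the stronger region a TSS of *Ns1* was nearer than any of *Dad*, at 7607 bp. With 18 pooled regions, *Dad* had 0.978 per kb of body and flanks, above 98.9% of protein-coding genes of 10 kb or longer, whose median was 0.225 per kb.

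*brk* (FBgn0024250, X, 7307939 to 7311132, plus strand, 3.19 kb), the gene of the Brinker repressor, had 1 thresholded region, 7306953 to 7307356, with the summit 784 bp upstream of its TSS. The signal was 104 at rank 3212, with 51.7 at rank 3919 in replicate 1 and 48.9 at rank 3315 in replicate 2. The summit also lies in introns of CG1677 and lncRNA:CR44357. A second region, 134 bp upstream of the TSS, missed the threshold with a signal of 83.3, and it was the stronger of both in replicate 1 (57.7, rank 3265) but not in replicate 2 (32.2, rank 6467).

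*shn* (FBgn0003396, 11159086 to 11217394 on the plus strand of 2R, 58.3 kb) led the set in signal and in number of regions. Its strongest region, 11173502 to 11173849, had the summit 162 bp upstream of the second of 5 TSSs, with a signal of 573 at rank 156. Replicate 1 gave 349 at rank 136 and replicate 2 gave 229.7 at rank 191, so the region stood among the strongest in both. The other 7 thresholded regions were intronic, with signals of 93.1 to 235, and the strongest of them, at 11207206, lay 2577 bp downstream of the last TSS. At 8 thresholded regions *shn* was among 15 protein-coding genes (0.108%) with as many, while 77.0% of the genes with any had exactly 1. These shares are over genes of all lengths, a longer body can hold more summits, and no share among genes as long as *shn* was computed. It had 47 pooled regions, of which 36 were matched in both replicates.

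One *shn* region differed more between replicates than the others. The intronic summit at 11185807, with a pooled signal of 172 at rank 1321, had 129.6 at rank 719 in replicate 1 and 44.2 at rank 3929 in replicate 2, a log2 rank ratio of 2.45. Over all thresholded regions, the 95th percentile of the absolute ratio was 1.77. By its ranks in both replicates, the strongest *shn* region was nearest to the strongest regions of *jp*, *Hsp83* and *yps*, which encode a junctophilin, the Hsp90 chaperone and a Y-box protein. Their ranks in replicate 1 and replicate 2 were 127 and 179 for *jp*, 138 and 216 for *Hsp83*, and 148 and 205 for *yps*, with summed absolute log2 rank ratios of 0.192, 0.199 and 0.224.

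*cv-2* (FBgn0000395, 21355015 to 21379464 on the minus strand of 2R, 24.5 kb) encodes Crossveinless 2, a secreted BMP-binding protein. It had 4 thresholded regions among 12 pooled ones. The promoter region had its summit 5 bp upstream of the only TSS, with a signal of 143 at rank 1854. The strongest, a narrow region of 103 bp with its summit at 21364182, lay in an intron 15282 bp into the gene, with a signal of 187 at rank 1131. It had 131 at rank 705 in replicate 1 and 56.0 at rank 2629 in replicate 2. Its log2 rank ratio of 1.90 was also above the 95th percentile of 1.77 over all thresholded regions. The remaining intronic regions had signals of 124 and 101. To the strongest summit a TSS of CG17974 was nearer, at 13604 bp, as it was to that of signal 124, at 12031 bp. All 4 thresholded regions ranked higher in replicate 1 than in replicate 2.

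**Figure D2:**
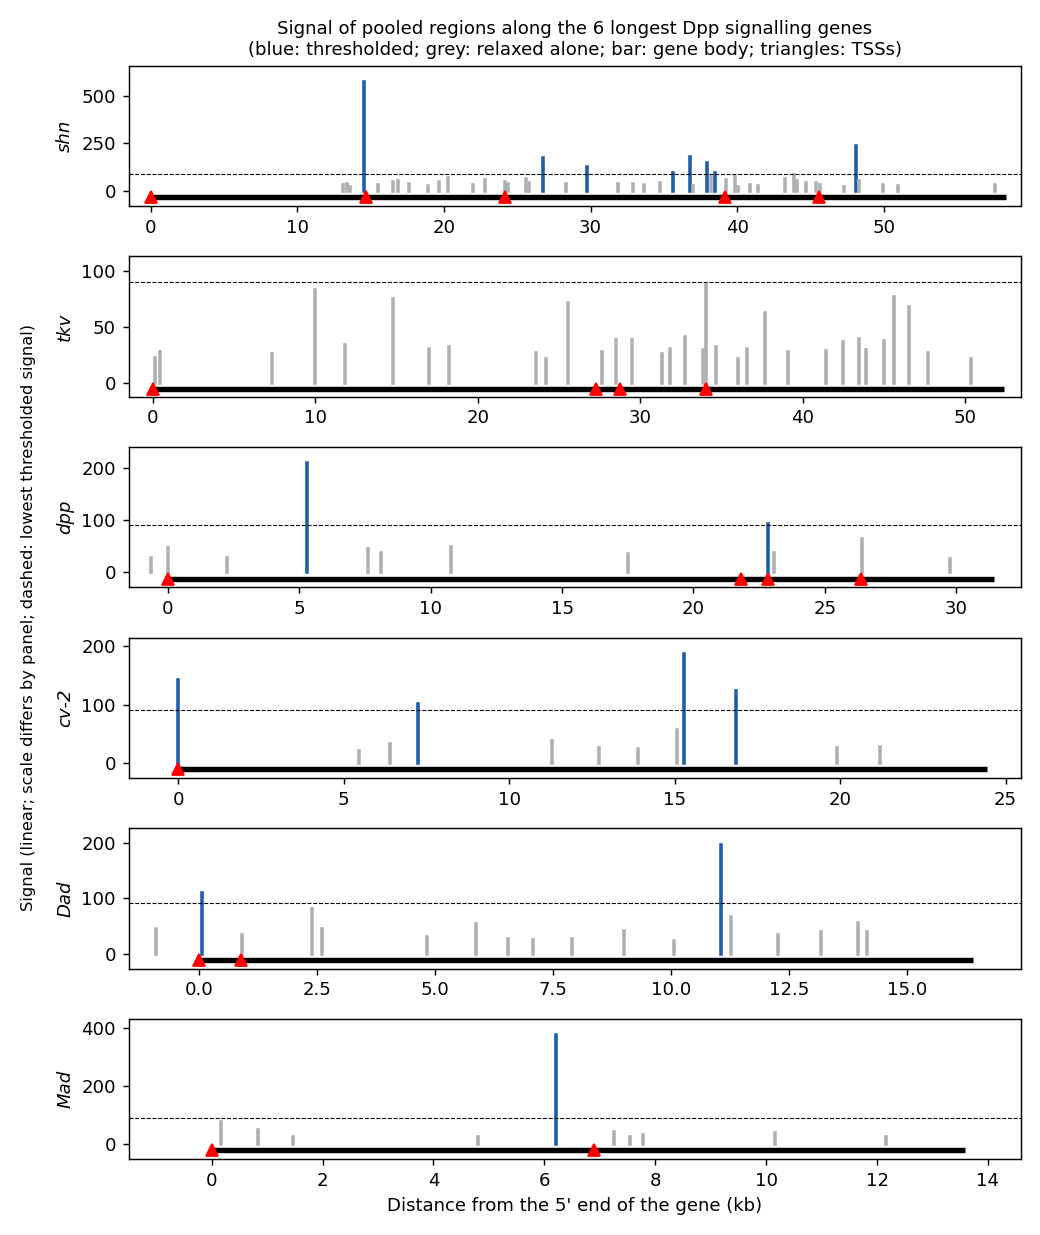
Signal of pooled regions (linear, one scale per panel) against distance in kb from the 5' end of each of the 6 longest Dpp signalling genes, with thresholded regions in blue, relaxed ones in grey, the gene body as a bar and TSSs as triangles. The tallest bars of *shn*, *Mad*, *dpp*, *Dad* and *cv-2* stand inside the gene body, and all 33 *tkv* bars end below the dashed line at 90.8.

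By place, the 20 thresholded summits were mostly intronic: 14 (70.0%) lay in introns and 6 within 500 bp of a TSS. Over all 3930 thresholded summits 25.8% were intronic and 63.4% were within 500 bp of a TSS. The rule counts whole gene bodies and most members are long, and among the 1839 thresholded summits that the same rule tied to protein-coding genes of 10 kb or longer, 45.0% were intronic and 50.8% within 500 bp of a TSS. *shn* alone held 7 of the 14 intronic summits, and the other members had 7 of 12. Of the latter 7, the summit at *brk* lies upstream of that gene, in introns of CG1677 and lncRNA:CR44357. The 6 members of 10 kb or longer had a median of 0.624 pooled regions per kb of body and flanks, against 0.225 for protein-coding genes of that length. The 4 shorter members had a median of 0.560, against 0.267 for shorter protein-coding genes. Among genes of 10 kb or longer the percentiles were 98.9 for *Dad*, 95.8 for *shn*, 90.1 for *Mad*, 88.1 for *tkv*, 76.2 for *cv-2* and 66.0 for *dpp*. The shorter *gbb*, *put*, *brk* and *Med* had 0.543, 0.346, 0.578 and 0.632 pooled regions per kb.

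**Figure D3:**
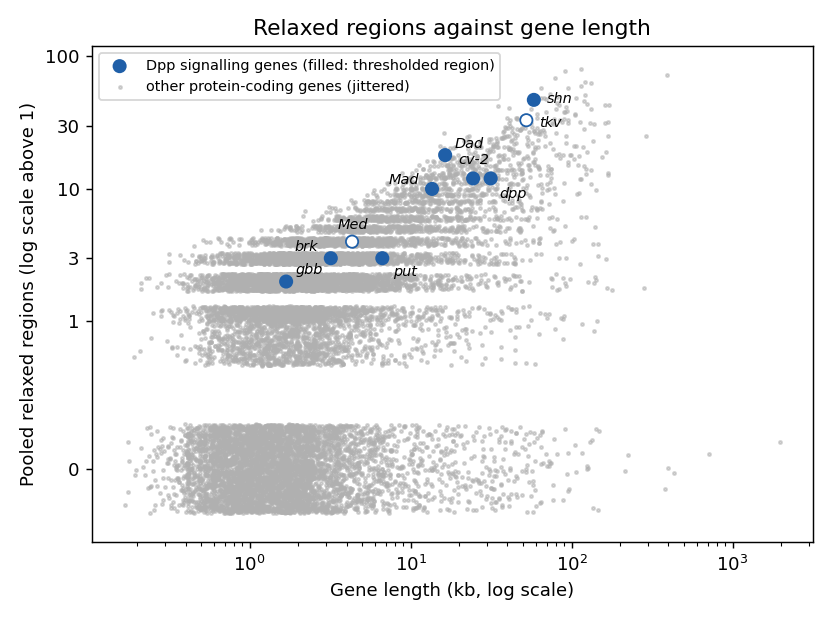
Number of pooled relaxed regions against gene length (kb, log scale) for the 10 Dpp signalling genes in blue, filled where a region passed the threshold, and for all other protein-coding genes in grey with small vertical jitter. *shn* (47 regions) and *tkv* (33) lie high among genes of their length, and *tkv* and *Med* are the open circles.

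In order of their strongest pooled region the members ran *shn* (573), *Mad* (376), *dpp* (209), *Dad* (197), *cv-2* (187), *brk* (104), *put* (103), *gbb* (93.3), *tkv* (87.5) and *Med* (83.6). Among the 8939 protein-coding genes with a pooled region, *shn* stood at percentile 97.6, *Mad* at 95.6 and *dpp* at 88.2, and *Med* at 57.1, with a median of 75.9 over the 10. These percentiles were not matched for gene length, and a gene with more regions has more chances of a strong one. The members had a median of 11 pooled regions, against 1 over all protein-coding genes and 5 over those of 10 kb or longer. The order of *shn* and then *Mad* held in both replicates. The next 3 were not ordered alike: *cv-2*, *Dad* and *dpp* ranked 705, 920 and 980 in replicate 1, but 2629, 1265 and 985 in replicate 2. For the 5 weakest, the strongest region that each replicate's own list gave the gene ranked 2458 to 4654 in replicate 1 and 3315 to 4411 in replicate 2, and their order also changed between replicates. For *tkv*, *Med* and *brk* that region was not the same one in both replicates.

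Every thresholded member region had a match within 200 bp in both replicates, with summits at most 94 bp apart, where 99.6% of all thresholded regions were matched. Of the 144 pooled relaxed regions 59.7% were matched in both, against 56.2% of all pooled regions. The thresholded regions were the 3930 strongest in the pool of these same replicates, so their match is no separate evidence. Of the 20, 14 ranked within the strongest 3930 of both replicates, and 15 ranked higher in replicate 1 than in replicate 2, where 51.0% of all thresholded regions did. The median absolute log2 rank ratio was 0.515 for the 20 and 0.480 for all 3914 thresholded regions matched in both. Across the 20 regions Spearman's rho of the replicate ranks was 0.589, against 0.698 across all thresholded regions; regions share the same libraries, and the labels name the same control for both, so they are not independent.

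**Figure D4:**
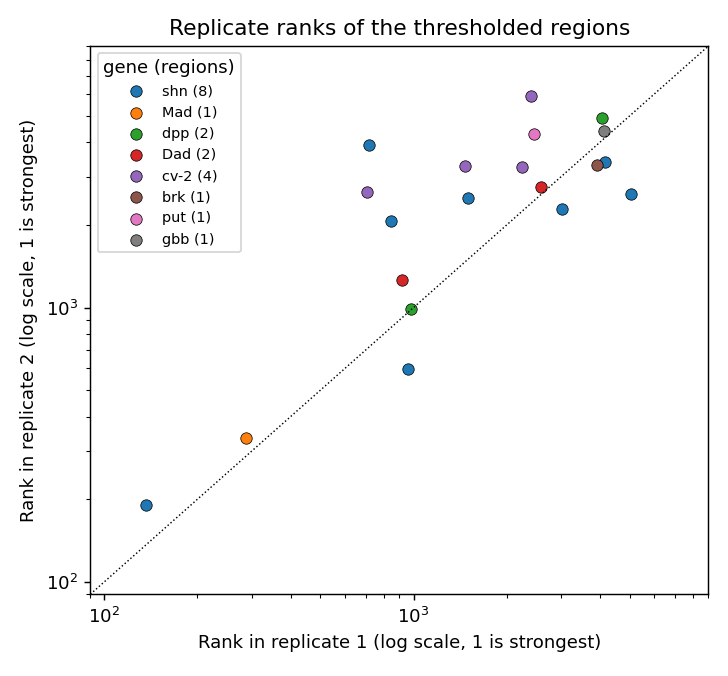
Rank of each of the 20 thresholded regions in replicate 1 and in replicate 2 (both on log scales, 1 is strongest), coloured by gene, with a dotted line at equal ranks. The top *shn* region and the *Mad* region lie near the line at ranks under 400, and the 4 *cv-2* regions lie above it.

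Sequences within 50 bp of the 20 summits were searched on both strands for 12 listed sequences. The Smad box GTCT was present at 10 of the 20, in 6 of the 8 genes with a thresholded region, and at 34.2% of all thresholded summits. CGATA was present at 3 (in *dpp*, *put* and *shn*), against 21.1% of all, GAGAG at 3 (in *Dad* and *shn*), against 15.7%, TATAAA at 2, against 10.3%, and CAGGTAG at the internal *dpp* start alone, against 0.585%. At least 3 CGATA matches, as at *put*, occurred at 3.03% of all thresholded summits. No match was found at the 20 summits to the Mad site GCCGNCGC (1.07% of all), the Brinker core GGCGCC (2.19%), the DRE TATCGATA (3.64%), which contains CGATA, Motif 1 GGTCACACT (1.70%), CACGTG (1.48%) or CAGCTG (6.51%). The Mad-Med-Shn element was at none of the 3930. The GC content of the 101 bp windows had a median of 37.1% (26.7% to 53.5%), against 41.6% over all thresholded summits. A match is a description of these letters and no site or cause was tested.

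Beyond the 10 members, 42 other genes of the pathway were examined, and 18 had a thresholded region. Of the 21 that are 10 kb or longer 13 had one, against the 47.9% of protein-coding genes of that length, and of the 21 shorter ones 5 had one, against 21.4%. By role the genes are few, and the counts that follow were not matched for length. Pooled relaxed regions were present at 4 of the 5 other ligand genes, against 64.1% of all protein-coding genes. All 5 are under 10 kb, and none had a thresholded region. Of the receptors 2 of 3 did: *wit*, the type II receptor of the neuromuscular junction, with a signal of 303 at rank 450, and the activin type I receptor gene *babo*. *Smox*, the Smad gene of the activin branch, had one. Among extracellular regulators 5 of 12 did, led by *magu*, a secreted feedback regulator of Dpp spread, with a signal of 334, *dlp*, a glypican, with 226, and *sog*, which encodes the BMP antagonist Short gastrulation, with 225. Among intracellular regulators 4 of 5 did, with *gro*, the Groucho corepressor, at 461 and *Snoo*, a Smad-binding Ski family gene, at 279. Of 16 targets of the pathway 6 had a thresholded region, with *ush* at 9479, the strongest of the whole list, and *salm*, a spalt zinc-finger gene, at 328.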

How the data were processed

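ChIP-seq with an anti-GFP antibody was done on 2 biological replicates of *her*-GFP embryos, with chromatin sheared by sonication to 200 to 800 bp, per the labels. The authors deposited the region lists, and the labels name the same possible control for both replicates. Aligner and peak caller were each not given in the sources used here. No scale is stated for the deposited signal, and the deposited −log10 q-value was 4.13 for every thresholded dm6 region, so regions were ranked by signal. Genes and TSSs came from Ensembl release 115 and sequence from the RefSeq Release 6 assembly, both dm6. Lists on dm3 were not used. Coordinates are 1-based. Of the thresholded entries, 24 share an interval with another but have their own summit, and all were kept. Density per kb divides by the gene length plus 2 kb. A region of 1 replicate was matched to a pooled one by the nearest summit within 200 bp, so 1 replicate region can match more than 1 pooled region.

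The members, the lists of pathway genes and sequences, and the rules were chosen with earlier results of these data known. The text names all members, genes of the pathway list, with values for the 8 strongest that had a thresholded region, the 3 genes nearest to the strongest member in replicate rank, and neighbours of a member's summit; the regions just beyond 1 kb of *gbb* and *Med* were named after their values were seen. No test was made, since all samples form 1 group. Tying summits to genes and matching summits were checked against direct counting on simulated summits. Python 3.11.15, numpy 2.4.6 and pandas 2.3.3 were used.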

Additional observations from a re-analysis of the deposited data

How the results depend on the processing

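The counts rest on where the signal list ends and on how a summit is tied to a gene. Among the 1965 strongest thresholded regions, 5 members had a region (*dpp*, *Mad*, *Dad*, *shn* and *cv-2*), 3 within 1 kb of a TSS, with 10 regions in all, against 14.6% of protein-coding genes and 9 of the 42 other pathway genes. All 5 are 10 kb or longer. In the 7860 strongest pooled regions all 10 members had one, with 40 regions in all, against 39.7% of protein-coding genes and 30 other pathway genes. Within gene bodies alone 6 members had one, without *gbb* and *brk*, against 12.1% of protein-coding genes. A TSS distance of 500 bp gave 7 members, against 23.3% of protein-coding genes, one of 2 kb gave 9, against 29.0%, and any overlap of the interval gave 9, against 26.3%. The nearest TSS gave 8, for which no share over all genes was computed. The shares of protein-coding genes in this section are over genes of all lengths. At these settings none was computed among genes of 10 kb or longer.

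With the 3930 strongest regions of 1 replicate alone, 8 members had a region in each, but not the same ones: without replicate 1 *tkv* and *Med* had one and *gbb* and *put* did not, and without replicate 2 *tkv* had one and *gbb* and *Med* did not. Within 1 kb of a TSS the numbers were 6 and 7, the regions at members 19 and 23, the protein-coding genes 25.4% and 24.8%, and the other pathway genes 20 and 16. The median rank of the members' strongest regions was 2172 in the pooled list, 2972 without replicate 1 and 1719 without replicate 2. All 20 regions were matched in both replicates also at 100 and 500 bp. With windows of 100 bp on each side of the summit in place of 50 bp, a listed sequence was at 16 in place of 13 of the 20 summits (8 members in place of 7), against 88.8% in place of 66.6% of all thresholded summits. The Smad box was then at 13 in place of 10 of the 20 summits, against 56.7% in place of 34.2% of all thresholded summits. TATAAA was then at 4 in place of 2 of the 20 summits, against 21.3% in place of 10.3% of all. The members with TATAAA went from 2 to 4. CAGCTG was at 1 in place of 0 of the 20 summits, against 13.1% in place of 6.51% of all. No interval that needs read depth could be given, and the signal's scale limits comparisons to ranks within a list.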

Other observations

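Of the members' 144 pooled regions, 1 held a pair of Brinker core matches, a *Dad* region just under the threshold. It had a pooled signal of 80.8 at rank 4674, with its summit in an intron 1499 bp downstream of the nearest *Dad* TSS. Replicate 1 gave it 53.1 at rank 3753, with a summit 88 bp away, outside the window searched. Replicate 2 gave it 38.5 at rank 4855, with the same summit. GGCGCC occurs in this region 2 times within 50 bp of the pooled summit. The same holds for 28 of the 30000 pooled regions (0.0933%), while 2.62% have at least 1 match. The region was chosen after its sequence was seen, and binding of Brinker was not measured. Capitals mark GGCGCC and, near the end, CTCTC, the reverse complement of GAGAG.

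*Dad* intron, chr3R:17056346-17056446: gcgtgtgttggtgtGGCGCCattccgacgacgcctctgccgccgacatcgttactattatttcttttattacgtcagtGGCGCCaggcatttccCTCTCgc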
